A study of Mus musculus with 6 samples.

Results

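Antisense transcripts are RNAs read from the strand opposite to a known gene, and the expressed ones were described here in mouse acute myeloid leukemia cells with and without *Phf6*, an X-linked gene for a chromatin-associated plant homeodomain finger protein. Rows of the deposited gene table were chosen by their biotype, antisense, and selected on their measured level, a mean read count of at least 50 in *WT Phf6,RE9a* or *VC Phf6,RE9a* cells, and 134 of the 2826 antisense rows met this rule, in a table of 54532 rows. The level was reached in both groups by 72 rows, in *WT Phf6,RE9a* only by 35 and in *VC Phf6,RE9a* only by 27, and since a row that reached it in 1 group only had to be lower in the other, these classes were kept apart. Both groups were GFP+ leukemia cells sorted from mouse bone marrow, driven by the fusion oncogene RUNX1-ETO9a (RE9a), which the study brought into fetal liver cells by a GFP retrovirus before transplantation. Both groups carried the floxed *Phf6* allele of male mice (*Phf6* fl/y), and *VC Phf6,RE9a* cells also carried Vav1-Cre, which deletes it across the blood lineage, while *WT Phf6,RE9a* cells had no Cre. Each group had 3 libraries, labelled WT1 to WT3 and KO11 to KO13, and the labels do not say whether these came from separate leukemias, so p-values measure only the spread between these libraries.

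Antisense RNAs are often spliced and polyadenylated like messenger RNAs, and many start at or near the promoter of the coding gene they overlap. Some act on the locus they come from: *Kcnq1ot1* silences its imprinted neighbourhood on the paternal chromosome. Others are short-lived by-products of transcription that the nuclear exosome and its adaptors degrade, and few have a known function.

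Total counts ran from 15675358 to 16817994 per library. *Phf6* had 1044, 827 and 1142 counts in WT1 to WT3 and 388, 314 and 331 in KO11 to KO13, a log2 fold change of -1.66 (SE, the standard error, 0.13, adjusted p = 9.32e-05). The groups were apart as labelled, with reads of *Phf6* remaining in each *VC Phf6,RE9a* library. Markers of other cell types moved with the groups. Those of mast cells and basophils summed to 14123 to 21413 CPM (read counts scaled to library size) in *WT Phf6,RE9a* and 4918 to 5329 in *VC Phf6,RE9a* libraries, with 7 of 8 genes lower. Erythroid markers were higher in 6 of 6 genes (1331 to 2038 CPM against 4327 to 4853), neutrophil maturation markers in 8 of 8 (161 to 513 against 1002 to 3578) and B cell markers in 5 of 5 tested (2.60 to 7.87 against 25.3 to 70.7). Macrophage and dendritic markers were higher in 2 of 8 genes (28.2 to 35.5 CPM against 42.0 to 58.6), *Lck*, the only T cell marker of 7 that could be tested, was higher (list sum 1.23 to 1.82 CPM against 6.59 to 9.15), and of 5 leukemia cell markers 1 was higher and 3 were lower (2184 to 3622 CPM against 325 to 508). The part of these cells in the results below was not tested, and in sorted cells measured in bulk, fewer cells of a type and less RNA per cell cannot be told apart. The labels name an RNA kit and no strand setting, and without strand, reads from a gene and its antisense partner cannot be told apart.

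The 5′ ends of 6 antisense genes that the results turn on are shown first, as windows of 250 bases before to 50 bases after the start site in RefSeq on GRCm38.p6. A window was found for 59 of the 134 rows, and in 41 of these the RefSeq start site lay within 100 bases of the 5′ end in the deposited table. Capitals mark the letters TGTGGT or ACCACA, the core that the Runt domain of RUNX1-ETO9a binds, and AGATAA or TTATCT, a core bound by GATA factors, searched on both strands.
1700006J14Rik, chr10:120363884-120364183, plus strand: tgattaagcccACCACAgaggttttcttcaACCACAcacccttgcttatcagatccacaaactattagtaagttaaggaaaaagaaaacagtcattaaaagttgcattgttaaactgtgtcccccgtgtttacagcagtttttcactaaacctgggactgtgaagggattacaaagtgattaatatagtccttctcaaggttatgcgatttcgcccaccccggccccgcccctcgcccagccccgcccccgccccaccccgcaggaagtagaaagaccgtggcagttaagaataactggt
Gm13262, chr2:9905899-9906198, plus strand: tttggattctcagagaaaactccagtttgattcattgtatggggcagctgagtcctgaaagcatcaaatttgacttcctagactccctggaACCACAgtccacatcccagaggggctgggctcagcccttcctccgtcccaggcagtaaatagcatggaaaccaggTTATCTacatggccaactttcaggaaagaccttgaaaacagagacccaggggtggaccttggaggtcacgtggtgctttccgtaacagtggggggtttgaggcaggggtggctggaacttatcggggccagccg
Gm16897, chr1:194976910-194977209, minus strand: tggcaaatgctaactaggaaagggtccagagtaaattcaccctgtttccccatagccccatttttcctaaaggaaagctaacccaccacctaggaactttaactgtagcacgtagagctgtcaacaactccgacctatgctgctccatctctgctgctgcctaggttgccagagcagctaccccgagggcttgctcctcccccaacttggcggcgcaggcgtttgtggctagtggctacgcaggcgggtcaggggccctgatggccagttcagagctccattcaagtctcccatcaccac
Gm26782, chr14:50870046-50870345, plus strand: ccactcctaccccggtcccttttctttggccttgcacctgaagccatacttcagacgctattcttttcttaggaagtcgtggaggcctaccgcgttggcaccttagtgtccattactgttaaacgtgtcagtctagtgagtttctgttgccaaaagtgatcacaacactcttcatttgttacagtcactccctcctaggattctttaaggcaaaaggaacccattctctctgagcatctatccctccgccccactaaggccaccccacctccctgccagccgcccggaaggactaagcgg
Gm42067, chr19:5912704-5913003, plus strand: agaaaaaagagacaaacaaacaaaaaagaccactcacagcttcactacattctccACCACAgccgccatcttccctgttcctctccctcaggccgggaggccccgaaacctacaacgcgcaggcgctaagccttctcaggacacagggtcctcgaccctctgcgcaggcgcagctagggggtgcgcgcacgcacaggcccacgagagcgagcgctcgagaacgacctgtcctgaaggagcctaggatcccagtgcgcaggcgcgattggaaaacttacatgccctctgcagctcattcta
Kcnq1ot1, chr7:143296498-143296797, minus strand: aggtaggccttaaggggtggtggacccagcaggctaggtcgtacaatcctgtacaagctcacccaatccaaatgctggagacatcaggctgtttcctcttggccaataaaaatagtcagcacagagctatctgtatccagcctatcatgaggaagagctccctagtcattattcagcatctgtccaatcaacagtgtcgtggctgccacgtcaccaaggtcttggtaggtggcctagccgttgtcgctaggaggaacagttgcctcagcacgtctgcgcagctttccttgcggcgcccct
The *1700006J14Rik* window, from the gene with the most antisense reads in *VC Phf6,RE9a* cells, held the RUNX letters in 2 places. *Gm13262*, which had the largest increase, held 1 RUNX and 1 GATA match, and *Gm42067*, whose RefSeq start lay 132 bases from the deposited one, held 1 RUNX match. *Gm16897* (antisense to *Cd34*), *Gm26782* (divergent from *Tep1*) and *Kcnq1ot1* held neither. Over the 41 windows, 8 held the RUNX letters (19.5%), against 16.8% of all 32851 windows in the table, and 5 held the GATA letters (12.2%), against 11.2%. The RUNX letters were in 3 of 8 windows of genes that were higher in *VC Phf6,RE9a* cells, 2 of 11 that were lower and 3 of 22 that did not pass the test. GGAAGT or ACTTCC, the core that ETS factors bind, was in 9 of the 41 windows (22.0%) and in 23.8% of all windows, and the GC box letters GGGCGG or CCGCCC were in 20 (48.8%) and in 35.7%.

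The 134 rows lay on 20 chromosomes, and 127 of them overlapped a protein_coding row, which served as the coding partner (where several did, the one with the most overlapping bases). The antisense gene lay inside its partner in 59 pairs, overlapped its 3′ end in 32 and its 5′ end in 28, and contained it in 6. In the remaining 2 pairs, *Gm45890* with *Gm20388* and *AC113595.1* with *Apobec3*, both rows were on the same strand despite the biotype. *Hmga2* and *Tbxas1* were each the partner of 2 antisense rows. Exons could be read from GENCODE M21 for 123 pairs with identical coordinates: 33 had no exon base in common with the partner, and in the other 90 a median of 11.8% of the antisense exon bases was shared. Of the 134 rows, 76 carry Gm symbols, 33 Rik symbols and 16 symbols that name a gene they lie opposite or near. Median gene length was 2015 bases, from 390 (*Gm17201*) to 93092 (*Kcnq1ot1*). On the FPKM scale, which is per length, the median level over all libraries was 2.77, against 9.47 for protein_coding and 3.23 for lincRNA rows at the same count level. The median ratio of antisense to partner FPKM was 0.164 for *WT Phf6,RE9a* cells and 0.148 for *VC Phf6,RE9a*, and the antisense row was above its partner in both groups in 20 of 123 pairs.

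Between the groups, 27 of the 134 antisense rows were higher in *VC Phf6,RE9a* cells, 37 were lower and 70 did not pass the test (edgeR's quasi-likelihood test, Benjamini-Hochberg adjusted p under 0.05 over all 14169 genes tested). These counts stood beside 21.5% higher and 22.7% lower among all genes tested, 44.2% together, and 48.3% of all rows at the same count level, so the share of antisense rows called, 47.8%, was near the background. Of the 72 rows at the level in both groups, 10 were higher and 11 lower. Of the 35 at the level in *WT Phf6,RE9a* cells only, 26 were lower, and of the 27 at the level in *VC Phf6,RE9a* cells only, 17 were higher, directions that the rule itself fixed. The median log2 fold change was -0.25 over the 134 rows and 0.01 over all genes tested. It was -0.15 over the 72 rows at the level in both groups. In the classes whose direction the rule fixed, it was -1.50 (*WT Phf6,RE9a* only) and 1.29 (*VC Phf6,RE9a* only). All 3 libraries of one group lay above all 3 of the other for 82 rows, 35 of them higher in *VC Phf6,RE9a* cells, where 57.3% of all genes tested were separated in this way. Among the 72 rows at the level in both groups, 14 were separated with *VC Phf6,RE9a* above and 17 with it below. Calls with a change of at least 2-fold numbered 21 higher and 30 lower, and 21.4% of all genes tested passed both criteria. Of these calls, 5 higher and 7 lower were in rows at the level in both groups, and in the rest the rule fixed the direction. At the same count level, 20.2% of all rows and 38.4% of lincRNA rows passed both criteria. Leaving out KO12 brought the count of lower rows from 37 to 23. Just inside the level were *Gm26770* (50.3 counts in *VC Phf6,RE9a*) and *Gm38155* (50.3 in *WT Phf6,RE9a*), and just outside were *Far1os* (49.3 in *WT Phf6,RE9a*) and *Gm2415* (48.7 in *VC Phf6,RE9a*).

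**Figure D1:**
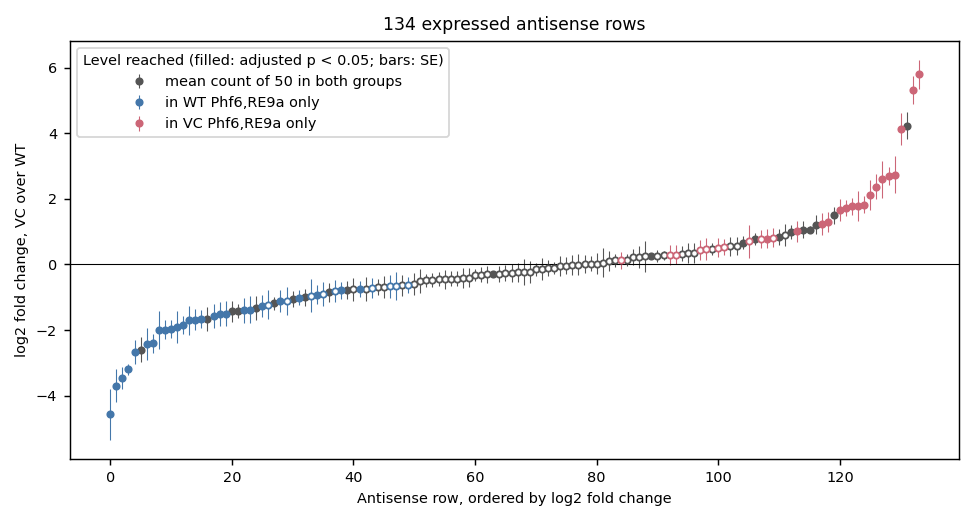
Log2 fold change between the groups (VC over WT) for the 134 antisense rows in order of size, with standard errors, filled where the adjusted p was under 0.05. Rows that reached the level in 1 group only, in colour, take up most of both ends, while the 72 rows at the level in both groups lie mostly near 0.

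In *VC Phf6,RE9a* cells, the antisense row with the most reads lay inside *Hmga2*, which encodes an architectural chromatin protein of fetal stem cells, and a further antisense row of the same gene rose with it. *1700006J14Rik* (ENSMUSG00000034764, chr10:120364157-120384336, plus strand) lies inside *Hmga2*, toward its 3′ end, and its 5′ window is the first shown above. It had 954, 309 and 444 counts in WT1 to WT3 and 11078, 11025 and 12982 in KO11 to KO13. The groups were far apart, with the *WT Phf6,RE9a* libraries the more variable, and the log2 fold change was 4.24 (SE 0.40, adjusted p = 0.000197). *9230105E05Rik*, also on the plus strand inside *Hmga2* and sharing no exon base with it, had 41, 9 and 17 counts against 951, 752 and 1229. Its lowest *VC Phf6,RE9a* library was well above its highest *WT Phf6,RE9a* library (log2 fold change 5.32, SE 0.43, adjusted p = 0.000112). *Hmga2* itself had 20, 8 and 10 counts against 234, 298 and 321, a log2 fold change of 4.35 (SE 0.35, adjusted p = 0.000102). WT1 was the highest *WT Phf6,RE9a* library for all 3 rows, and without it the antisense values were 4.84 for *1700006J14Rik* and 6.10 for *9230105E05Rik*. The nearest coding gene outside *Hmga2* was *Llph*, 131575 bases from *1700006J14Rik*, with a log2 fold change of 0.19 (SE 0.14, adjusted p = 0.314). Per length, *1700006J14Rik* stood 105 times above *Hmga2* in *WT Phf6,RE9a* and 96.6 times in *VC Phf6,RE9a* cells, and the antisense to coding ratio did not pass the test for either row (log2 difference -0.09, SE 0.28, adjusted p = 0.863 for *1700006J14Rik*, and 1.00, SE 0.41, adjusted p = 0.112 for *9230105E05Rik*).

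With *1700006J14Rik* included, the total of antisense reads was higher in *VC Phf6,RE9a* cells. Antisense rows took 0.167%, 0.203% and 0.160% of all counts in WT1 to WT3 and 0.241%, 0.237% and 0.272% in KO11 to KO13. The *VC Phf6,RE9a* libraries were all higher, 1.41-fold in the mean, with p = 0.1 in a two-sided exact permutation test, the smallest that 3 against 3 libraries allow. *1700006J14Rik* alone made up 28.2% to 29.7% of the antisense counts in *VC Phf6,RE9a* and 0.969% to 3.39% in *WT Phf6,RE9a* libraries. Without it, a comparison added after seeing the data, the shares were 0.173% ± 0.0243 and 0.178% ± 0.0121 (SD, n = 3 each), the groups overlapped, and the exact permutation p was 0.7. For comparison, lincRNA rows took 0.844% ± 0.0721 and 0.854% ± 0.0486 of the counts (SD, n = 3 each, exact permutation p = 0.8).

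**Figure D2:**
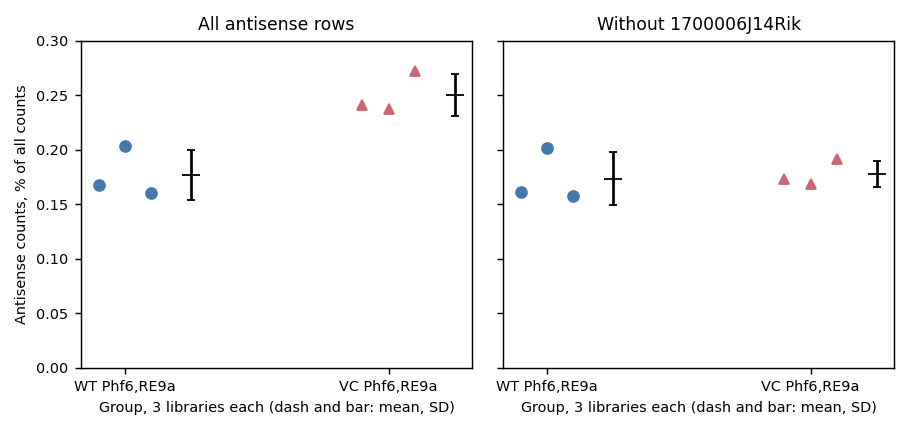
Share of all counts, in percent, taken by antisense rows in each library, with and without 1700006J14Rik, with group means and SD. The VC Phf6,RE9a libraries lie above the WT Phf6,RE9a libraries on the left, and the groups overlap on the right.

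The largest increase by log2 fold change was in *Gm13262* (ENSMUSG00000075534, chr2:9906178-9914678, plus strand), which overlaps the 3′ end of *Taf3*, a gene for a subunit of the general transcription factor TFIID. It had 1, 2 and 6 counts in *WT Phf6,RE9a* libraries and 160, 209 and 197 in *VC Phf6,RE9a* libraries. The row was close to unread in the former and well read in the latter, with a fitted log2 fold change of 5.80 (SE 0.44, adjusted p = 8.69e-05) that came to 6.69 without WT3. Since that value rests on 9 counts in one group, the ratio of summed counts per total count is also given: 63.8, with a 95% exact interval of 33.4 to 140 that covers counting error only. The nearest coding gene beyond *Taf3* that it does not overlap is *Gata3*, a transcription factor of T cell development, 16144 bases away, with a log2 fold change of 1.71 (SE 0.15, adjusted p = 0.000132).

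*Gm35853* (chr15:101322888-101405834, plus strand) contains the keratin gene *Krt80* and had 13, 37 and 8 counts against 336, 387 and 416 (log2 fold change 4.14, SE 0.49, adjusted p = 0.000513, and 5.06 without WT2). *Krt80* moved by a like amount (3.77, SE 0.28). *AC166164.1*, at the 3′ end of the cytidine deaminase family gene *Apobec2*, had 9, 1 and 12 counts against 65, 48 and 47 (log2 fold change 2.73, adjusted p = 0.00612), and *Apobec2* had a log2 fold change of 2.89. *Sox6os* lies inside *Sox6*, a transcription factor of erythroid maturation, and had 2, 9 and 14 counts against 52, 38 and 76. Its log2 fold change was 2.60 (SE 0.56, adjusted p = 0.00749), and that of *Sox6* was 1.57 (SE 0.15). Erythroid, neutrophil maturation and B cell markers were higher in the same libraries and most mast cell markers lower, and their part was not tested. *Gm19434*, inside the heme-binding protein gene *Hebp1*, rose by a log2 fold change of 2.37 with *Hebp1* at 2.90.

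Of the other large increases, *Gm42067* is described with *Dpf2* below. *Gm13010* (log2 fold change 2.70, adjusted p = 0.000328) and *F630028O10Rik* (2.11, adjusted p = 0.00738) overlapped no protein_coding row. *F630028O10Rik* was the less even, with 16, 15 and 32 counts against 138, 108 and 50. *4921523L03Rik* (1.78) overlapped *Gm20661* (2.52), and its call was lost without KO13 (adjusted p = 0.0502). *Gm45890* (1.77, adjusted p = 0.00111) had as partner by overlap the same-strand row *Gm20388*, which had 0 counts in every library. It overlaps the 3′ end of the opposite-strand gene *Abcb10*, a mitochondrial transporter of erythroid cells, whose log2 fold change was 1.20 (SE 0.09, adjusted p = 8.7e-05).

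The largest decrease was in *Gm16897* (ENSMUSG00000097325, chr1:194955759-194976960, minus strand), which overlaps the 3′ end of *Cd34*, the surface marker of hematopoietic stem and progenitor cells. It had 70, 297 and 64 counts in *WT Phf6,RE9a* libraries and 7, 7 and 6 in *VC Phf6,RE9a* libraries, and *Cd34* had 3159, 11395 and 2807 against 129, 543 and 120. Both rows were highest in WT2, and the groups of *Cd34* did not overlap. The log2 fold changes were -4.57 (SE 0.77, adjusted p = 0.00255) and -4.63 (SE 0.83, adjusted p = 0.00347), and without WT2 the antisense value was -3.41.

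*Gm15635* lies inside *Slco2b1*, an organic anion transporter gene, and had 145, 208 and 69 counts against 14, 10 and 12. It dropped by 3.69 on the log2 scale (SE 0.49, adjusted p = 0.000884), while *Slco2b1* dropped by 1.40. *Gm15657* overlaps the 5′ end of the transmembrane mucin gene *Muc13*, and its counts of 418, 429 and 384 against 47, 49 and 51 were the most even of the large changes. Its log2 fold change was -3.19 (SE 0.16, adjusted p = 2.78e-05), and that of *Muc13* was -2.59. *B630019A10Rik* overlaps no coding row and lies 294 bases from *St6gal1*, a sialyltransferase gene. It had 666, 344 and 336 counts against 46, 34 and 53 (log2 fold change -3.47, adjusted p = 0.000243), with *St6gal1* at -1.52.

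*Gm44851*, a single-exon row at the 5′ end of the proprotein convertase gene *Furin*, had 1346, 1373 and 574 counts against 223, 146 and 234. WT3 was the lowest of its group and still above every *VC Phf6,RE9a* library (log2 fold change -2.60, adjusted p = 0.00139), and *Furin* showed the same dip in WT3 with 37680, 33608 and 17648 counts against 11700, 10075 and 11764 (-1.55). *Gm26782* starts 236 bases from *Tep1*, a telomerase-associated protein gene, in the opposite direction, and had 172, 210 and 141 counts against 27, 44 and 38 (log2 fold change -2.40, adjusted p = 0.00057). *Tep1* dropped by less, with a log2 fold change of -0.79. *Anxa11os*, inside the annexin gene *Anxa11*, had a log2 fold change of -2.43 (adjusted p = 0.00616) and *Anxa11* one of -1.11.

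The remaining large decreases were *5830418P13Rik* at *Bfsp2* (-2.68), *E130307A14Rik* at *Traf3ip2* (-1.99, with *Traf3ip2*, an adaptor of interleukin 17 signaling, at -2.04), *5830432E09Rik* inside the phosphatase gene *Ptpre* (-1.97, with *Ptpre* at -1.48) and *Gm13185* inside *Fam107b* (-1.91, with *Fam107b* at -0.79). *Gm15283* contains *Hif1a*, the oxygen-responsive transcription factor, and had 45, 188 and 59 counts against 22, 31 and 28. WT2 was again the highest, and the log2 fold change of -2.0 (adjusted p = 0.0259) came to -1.04 without WT2 and was no longer called without any 1 of KO11, KO12 or KO13 (adjusted p from 0.0652 to 0.0849). *Hif1a* dropped by 1.72.

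**Figure D3:**
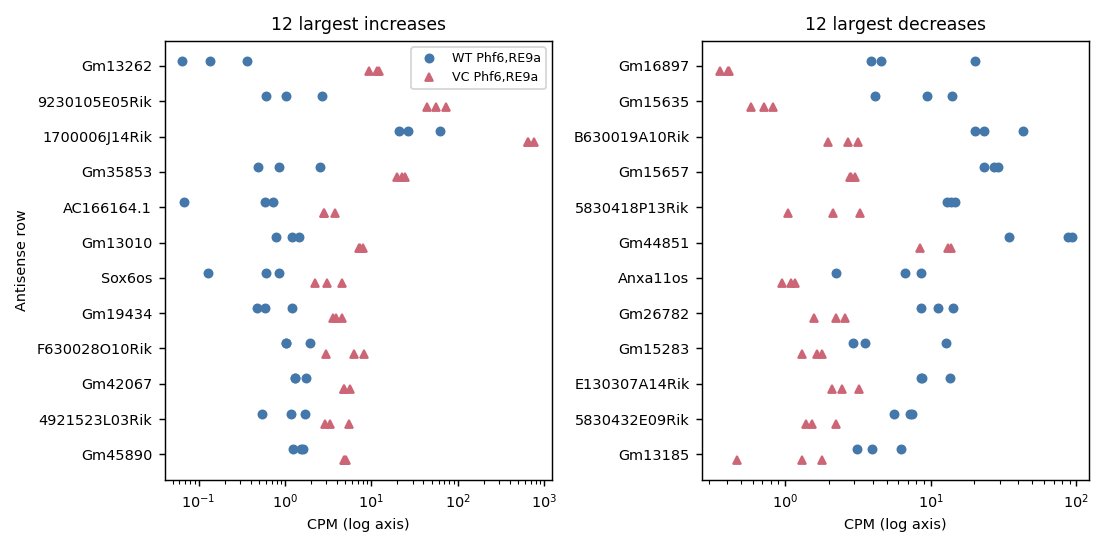
CPM on a log axis in each of the 3 WT Phf6,RE9a and 3 VC Phf6,RE9a libraries for the 12 antisense rows with the largest called increases and the 12 with the largest called decreases. These rows were chosen for groups that do not overlap, and most lie below 10 CPM in the lower group.

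The most abundant antisense rows per length, beside those of *Hmga2* and *Gm44851*, changed less. *Gm15915*, inside the laminin-related netrin gene *Ntn4*, had 89.4, 122 and 125 FPKM in *WT Phf6,RE9a* and 133, 126 and 148 in *VC Phf6,RE9a* libraries. The libraries were separated by a narrow margin and the row did not pass the test (log2 fold change 0.28, SE 0.14, adjusted p = 0.147). *1700042O10Rik*, inside *Ddc*, the gene of aromatic amino acid decarboxylase, had 50.3, 43.7 and 50.5 FPKM against 99.4, 88.1 and 113. All *VC Phf6,RE9a* libraries were higher (log2 fold change 1.06, SE 0.12, adjusted p = 0.00037), and *Ddc* rose by a log2 fold change of 0.39. *Gm47827* in the lysosomal amino acid transporter gene *Slc38a9* (1.06, adjusted p = 0.0121) and *Gm12867* in the glucose transporter gene *Slc2a1* (1.22, adjusted p = 0.0104) were also higher. *Gm17201* in *Ankrd52* overlapped between the groups (log2 fold change -0.10, adjusted p = 0.678). *Tug1*, a widely expressed long noncoding RNA that starts 179 bases from *Morc2a*, had 2390, 2362 and 2162 counts against 2063, 2013 and 2077. The difference was small, with a log2 fold change of -0.30 (SE 0.10, adjusted p = 0.037), and the call was lost when any 1 library other than WT3 was left out (adjusted p from 0.065 to 0.122).

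Of the 127 pairs, 117 had both rows tested, and the partner was called in 71 of them. Both rows were called in 46 pairs, and the direction was the same in 44, with 17 pairs higher and 27 lower. Only the antisense row was called in 8 pairs, only the coding row in 25 and neither in 38. Across the 117 pairs the log2 fold changes had a Spearman rho of 0.78 and a Pearson r of 0.82, a description over pairs that share libraries and, without strand, can share reads. In the 27 pairs without a common exon base, rho was 0.82 and 11 of 11 pairs called in both rows had the same direction, and in the 86 pairs with one rho was 0.76. In the 65 pairs whose antisense row reached the level in both groups, rho was 0.61. Both rows were called in 17 of these 65 pairs, 7 with both higher, 9 with both lower and 1 in opposite directions. In the pairs outside these 65, the rule itself fixed the direction of the antisense row. With the nearest coding row that does not overlap, tested for 98 antisense rows, rho was 0.33, and of 23 pairs called in both rows 18 had the same direction. This neighbour comparison was added after the values were seen.

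**Figure D4:**
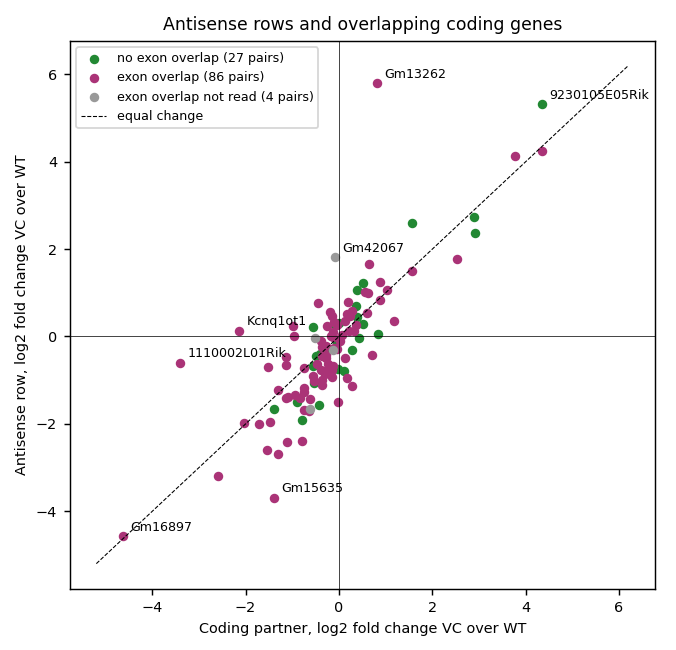
Log2 fold change of the antisense row against that of its coding partner in 117 pairs, with the dashed line marking equal change. Most pairs lie along the line, with and without exon overlap, and Gm13262, Gm42067, Kcnq1ot1, 1110002L01Rik and Gm15635 lie away from it.

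Whether an antisense row changed by another factor than its partner was tested as the change in their ratio within each library, over all 378 antisense and coding pairs that could be tested at any level. The ratio was higher in *VC Phf6,RE9a* cells in 7 and lower in 9 of the 117 pairs described here, beside 5.29% of all pairs in each direction. In the 65 pairs whose antisense row reached the level in both groups, it was higher in 4 and lower in 2. In the pairs outside these 65, the rule fixed the direction of the antisense row, so their ratio calls are not free of it. Of the 16 pairs called, 8 kept the call under each alternative setting in which they were tested: *Gm13262*, *Gm42067*, *Kcnq1ot1*, *Gm44686*, *Gm15635*, *Gm26782*, *Gm42962* and *Gm44851*. *Gm13262* could not be tested under the setting of at least 10 counts in every library. In 3 pairs the antisense level did not pass the test while the coding partner was lower. *Kcnq1ot1* (ENSMUSG00000101609, chr7:143203458-143296549, minus strand), a single-exon row inside the potassium channel gene *Kcnq1*, had 563, 503 and 554 counts against 557, 542 and 839, with KO13 above the rest (log2 fold change 0.13, SE 0.18, adjusted p = 0.58). *Kcnq1* had 267, 234 and 199 counts against 51, 75 and 48, so that the groups were apart (log2 fold change -2.14, SE 0.25, adjusted p = 0.000482). The log2 ratio rose by 2.24 (SE 0.33, adjusted p = 6.33e-05).

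The other 2 were *1110002L01Rik* with the kinesin gene *Kif3c*, where the log2 ratio rose by 2.80 (adjusted p = 0.000179) and *Kif3c* had 67, 57 and 54 counts against 6, 9 and 3, and *Gm17590* with *Cdk6*, a cell cycle kinase gene, where it rose by 1.34 (adjusted p = 0.0124). The first of these depended on the partner: against the coding row with the nearest start site it was -0.27 (adjusted p = 0.581). *Gm17590* overlapped between the groups, with 35, 125 and 62 counts against 73, 102 and 117, and its ratio was no longer called without WT1 (adjusted p = 0.115) or without WT3, KO12 or KO13 (0.0838, 0.05001 and 0.0561).

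At *Dpf2*, which encodes a subunit of the BAF chromatin remodeling complex, the antisense row moved and the coding row did not pass the test. *Gm42067* (chr19:5912822-5914826, plus strand) starts 188 bases from *Dpf2* and had 20, 19 and 29 counts against 82, 83 and 96. Its libraries were even within groups and far apart between them (log2 fold change 1.82, SE 0.26, adjusted p = 0.00126). *Dpf2* had 3226, 3226 and 3515 counts against 3356, 3445 and 3488 (log2 fold change -0.08, SE 0.07, adjusted p = 0.407), and the log2 ratio rose by 1.90 (SE 0.30, adjusted p = 0.000113). *Gm42962*, inside the thromboxane synthase gene *Tbxas1*, was the like case in the other direction: it had 89, 122 and 78 counts against 56, 24 and 32 (log2 fold change -1.50, adjusted p = 0.0147). *Tbxas1* overlapped between the groups with a log2 fold change of -0.01 (SE 0.10), and the log2 ratio fell by 1.51 (adjusted p = 0.00219). Without KO12, the antisense call was lost (adjusted p = 0.0501). *Gm42067* reached the level in *VC Phf6,RE9a* cells only and *Gm42962* in *WT Phf6,RE9a* cells only. The rule itself thus fixed the direction of both antisense rows.

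In 2 pairs both rows were called in opposite directions. The count came to 1 by DESeq2 or without any 1 of WT1 to WT3, and to 0 without any 1 of KO11 to KO13. *Gm44686* overlaps the 5′ end of *Chd2*, a chromodomain helicase gene, and had 70, 80 and 90 counts against 155, 155 and 139, while *Chd2* had 4894, 5219 and 4324 against 3957, 3990 and 3722. The antisense row was higher (log2 fold change 0.78, adjusted p = 0.0129) and *Chd2* lower (-0.44, adjusted p = 0.0186), with a ratio change of 1.21 (SE 0.26, adjusted p = 0.00358). *1700052K11Rik* at the 5′ end of *Tlk2*, a kinase gene of chromatin assembly, had 52, 50 and 58 counts against 33, 32 and 15. It was lower (log2 fold change -1.12, adjusted p = 0.0294) with *Tlk2* higher (0.27, adjusted p = 0.0305), but the antisense call was lost without any 1 library other than KO11 (adjusted p from 0.0521 to 0.0644). *1700052K11Rik* reached the level in *WT Phf6,RE9a* cells only, so the rule fixed its direction.

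In other pairs both rows moved the same way and the antisense row by more. Of these antisense rows, *Gm13262* reached the level in *VC Phf6,RE9a* cells only, and *Gm15635* and *Gm26782* in *WT Phf6,RE9a* cells only. The rule thus fixed their direction. Since it was not applied to the coding partners, it also favoured a larger change in these antisense rows than in their partners. The log2 ratio rose by 4.99 for *Gm13262* and *Taf3* (SE 0.44, adjusted p = 1.95e-08, and 5.84 without WT3), where *Taf3* had a log2 fold change of 0.81, and by 1.02 for *Gm19719* and *Alox5ap* (adjusted p = 0.0475), a gene of leukotriene synthesis. It fell by 2.17 for *Gm15635* and *Slco2b1* (adjusted p = 0.000991), by 1.59 for *Gm26782* and *Tep1* (adjusted p = 0.00157), and by 1.03 for *Gm44851* and *Furin* (adjusted p = 0.00273). It was otherwise in *Gm45606* and the amino acid transporter gene *Slc43a2*. Their log2 ratio fell by 1.08, with the antisense row at -0.41 (adjusted p = 0.325) and *Slc43a2* higher (0.71). The ratio calls for this pair, *5830418P13Rik* with *Bfsp2* (-1.38), *Gm41077* with *Zfp131* (-1.11), *1700097N02Rik* with *Dnah8* (-1.05) and *Gm19719* had adjusted p from 0.0337 to 0.0475, and were lost when single libraries were left out.

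**Figure D5:**
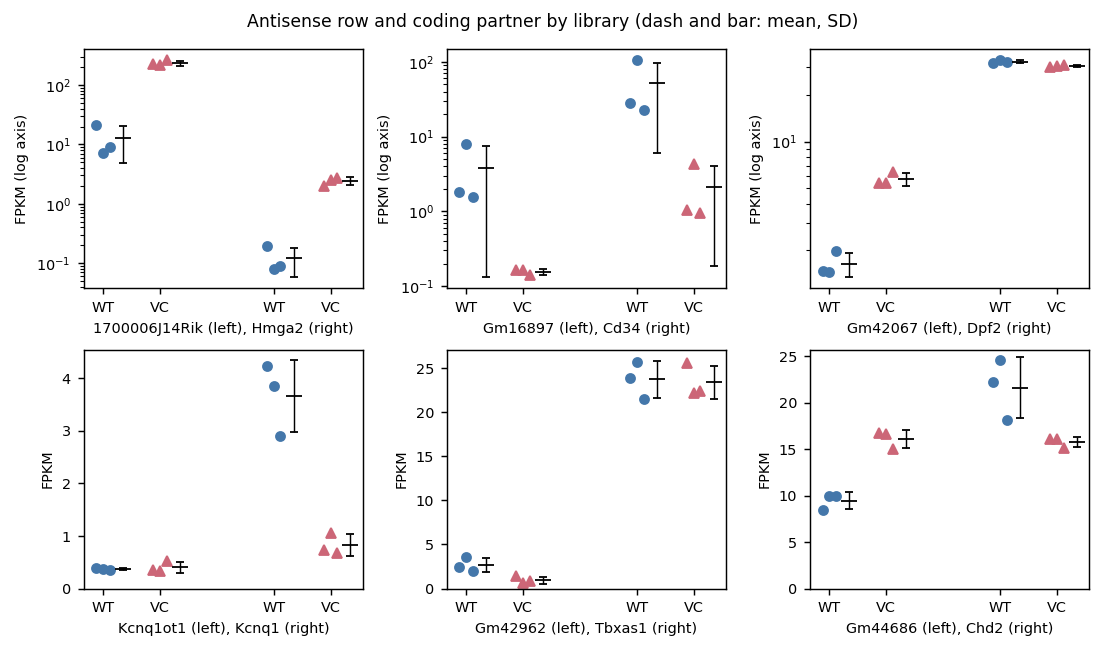
FPKM of 6 antisense rows and their coding partners in each library, with mean and SD, on log axes in the upper row and linear axes in the lower row. 1700006J14Rik with Hmga2 and Gm16897 with Cd34 moved together, in Gm42067 and Gm42962 the partner stayed within the spread of the libraries, Kcnq1ot1 overlapped between the groups while Kcnq1 was lower, and Gm44686 and Chd2 moved in opposite directions.

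Of 28 symbols listed as well known antisense RNAs, 24 were in the table, not all of them with the biotype antisense. Of the list, 9 were tested, and 2 were higher and 2 lower, 44.4% beside the 44.2% of all genes tested. Only *Wt1os* among the called symbols had the biotype antisense. The higher calls came to 1 without WT1, WT2, KO11 or KO13, and the lower calls to 1 without KO11 or KO12. Of the list, *Kcnq1ot1* and *Wt1os* met the level and the biotype. *Wt1os* is divergent from the Wilms tumor gene *Wt1*, which starts 19 bases beyond it, and had 20, 25 and 34 counts against 66, 59 and 86. The groups did not overlap (log2 fold change 1.29, SE 0.30, adjusted p = 0.0101), and *Wt1* had a log2 fold change of 0.84 (SE 0.19, adjusted p = 0.00991). *Wt1os* reached the level in *VC Phf6,RE9a* cells only, so the rule fixed its direction. The other called symbols were *Pvt1*, a lincRNA row (0.50, adjusted p = 0.0338), and 2 processed_transcript rows. These were *Dleu2* (-0.55, adjusted p = 0.0273) and *A330023F24Rik* (-2.30, adjusted p = 0.00594).

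Of 59 tested genes on lists of RNA decay and processing, 39 did not pass the test. The 13 that were higher (22.0%) and the 7 that were lower (11.9%) stood beside 21.5% and 22.7% of all genes tested, and the 13 came to 4 to 7 when any 1 library other than WT3 was left out. Of 13 exosome genes, whose complex digests RNA from its 3′ end, 3 were higher and 0 lower: *Exosc4* (log2 fold change 1.01, adjusted p = 0.00237), *Exosc1* (0.59, adjusted p = 0.0322) and *Exosc8* (0.43, adjusted p = 0.0399). Of 6 genes of the NEXT and PAXT adaptors, which bring RNA to the exosome, 2 were higher (*Zfc3h1*, 0.45, and *Zcchc8*, 0.31) and *Pabpn1*, a nuclear poly(A) binding protein gene, was lower (-0.96, adjusted p = 0.0078). Of 14 Integrator genes, whose complex ends unstable transcripts early, 4 were higher and 2 lower, with *Ints9* (-1.01, adjusted p = 0.000803) and *Ints6* (-0.91, adjusted p = 0.000341) the largest changes. Of 17 cleavage and polyadenylation genes 3 were higher, led by *Cpsf1* (0.80, adjusted p = 0.00037), and 1 was lower, and of 3 U1 snRNP genes 1 was higher. Of 6 XRN and decapping genes 3 were lower: *Dcp1a* (-0.78), *Dxo* (-0.78) and *Dcp1b* (-0.45). The median log2 fold change was 0.29 for the exosome genes, 0.23 for NEXT and PAXT, -0.05 for U1 snRNP, 0.03 for cleavage and polyadenylation, 0.09 for Integrator and -0.27 for XRN and decapping genes, against 0.01 over all genes.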

How the data were processed

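RNA-sequencing was compared between 3 *WT Phf6,RE9a* and 3 *VC Phf6,RE9a* libraries. The authors deposited raw read counts per gene and FPKM values, which the authors scaled by gene length and library size. The deposited columns of their own comparison (mean signal, log2 fold changes and p-values) were not used. Submitters' processing notes list Bowtie 0.12.0 and mm8, but the deposited coordinates are those of GRCm38 (131 of 134 rows identical in GENCODE M21), and they are given as deposited. The counting tool and strandedness are not given in the sources used here. Rows that share reads with an overlapping gene are uncertain.

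In R 4.3.3, counts were filtered (filterByExpr), scaled by TMM and tested by quasi-likelihood in edgeR 4.0.16, and p-values were adjusted over all genes tested (Benjamini-Hochberg). CPM values are TMM-scaled. The ratio test used the same model on both rows of a pair, with a term for each library. DESeq2 1.42.0 and limma 3.58.1, on log2(FPKM + 1), were alternatives. The tests were checked on simulated data. No library pair within a group was alike to within sampling noise (10.7 to 41.3 chi-square units per gene). Intervals cover counting error only.

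Named rows were the 10 with the highest FPKM, the 12 largest called increases and 12 decreases without overlap, the 6 largest ratio changes each way, the pairs in opposite directions, the 5 smallest p, the rows next to the level, the known antisense RNAs and their partners. Other ratio calls, *Gm45606*, *1700097N02Rik*, *Gm19719* and *Abcb10* were named after their values were seen. The rows and lists were chosen with earlier results of these data known.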

Additional observations from a re-analysis of the deposited data

How the results depend on the processing

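No paired analysis was possible because the groups share no replicate numbers. DESeq2, RLE size factors, both count filters and limma on log2(FPKM + 1) left the counts of higher and lower antisense rows within 1.5 times of 27 and 37, and with each library left out in turn they ran from 20 to 28 and from 23 to 42 (the lowest without KO12). A level of 20 gave 48 higher and 67 lower of 319 tested rows, a level of 100 gave 16 and 19 of 58, and an adjusted p under 0.01 gave 16 and 17. At that threshold 4 antisense to coding ratios were lower in place of 9. Calls of both rows in the same direction numbered 11 in pairs without exon overlap and 18 with the nearest coding row that does not overlap (added after seeing the data), in place of 44. The processing lists had 4 to 17 higher calls in place of 13 with a library left out, and the well known antisense RNAs 1 to 2 higher and 1 to 2 lower in place of 2 each, with 1 lower at 10 counts in every library or by limma. With 1 library left out the log2 fold change changed sign in 4 rows that were not called: *Gm17201* (-0.19 to 0.0030), *Kcnq1ot1* (-0.11 to 0.25), *Gm17590* (-0.095 to 0.92) and *Gm26770* (-0.016 to 0.25). The ratio of *1110002L01Rik* was -0.27 with the partner of the nearest start site. Of 33 named rows that were called, 28 were called under each alternative in which they were tested. The causes of these changes were not tested. Counts near 50, 3 libraries per group and the unknown strand limit the precision.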

Other observations

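The rows below were chosen after their values were seen. Where a row reached the level in 1 group only, the rule also fixed its direction. *Il1bos*, which overlaps the 5′ end of the interleukin 1 beta gene *Il1b*, had 189, 90 and 162 counts in *WT Phf6,RE9a* and 42, 46 and 61 in *VC Phf6,RE9a* libraries, with no overlap (log2 fold change -1.68, standard error 0.31, adjusted p = 0.0041). *Il1b* overlapped between the groups, with 552, 381 and 328 counts against 492, 250 and 86 (log2 fold change -0.74, adjusted p = 0.291), and the change in the ratio did not pass the test (adjusted p = 0.401). *Kdm6bos*, inside the histone demethylase gene *Kdm6b*, had 113, 163 and 106 counts against 83, 37 and 47 (log2 fold change -1.33, adjusted p = 0.0204), and *Kdm6b* was lower too (-0.93, adjusted p = 0.0143). *4930579G18Rik*, inside the splicing-related gene *Acin1*, had a log2 fold change of -1.42 (adjusted p = 0.00146) beside -1.13 for *Acin1*.

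Among the 7 rows that overlap no coding row, *BC051226* lies 97 bases from the histone chaperone gene *Daxx* and had 42, 34 and 39 counts against 108, 151 and 154 (log2 fold change 1.71, adjusted p = 0.00117), with *Daxx* at 0.60 (adjusted p = 0.000652). *Gm4285* lies 129 bases from *Tpt1*, the gene of translationally controlled tumor protein, and had 76, 68 and 59 counts against 24, 20 and 18 (log2 fold change -1.84, adjusted p = 0.00162), with *Tpt1* at -1.37 (adjusted p = 0.000179). *Brip1os* contains the Integrator gene *Ints2* and was among the best read rows, with 1036, 1091 and 1258 counts against 1406, 1520 and 1486. Its change was small (log2 fold change 0.26, adjusted p = 0.0382), as was that of *Ints2* (0.37, adjusted p = 0.0283).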
